A study of Homo sapiens with 6 samples.

Results

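The feedback arm of canonical Wnt signaling was examined in A2780 cells, a human ovarian cancer cell line, through 10 genes chosen by name: AXIN2, LGR5, TCF7, LEF1, DKK1, NKD1, RNF43, ZNRF3, SP5 and CTNNB1. All 10 were among the 44591 genes listed in the count files. The 3 untreated cultures were wild-type A2780 cells grown for 48 h in DMEM with fetal bovine serum. The 3 treated cultures were the same line kept for 48 h with recombinant human CRMP2 (r-CRMP2) at 40 ng/ml in that medium. CRMP2 is a microtubule-associated protein encoded by DPYSL2, and the study asked which pathways it alters in ovarian cancer cells when it reaches them from outside. A single cell line was used, the untreated cultures received no control protein that the labels name, and nothing says whether the 3 cultures of a group were grown separately, so p-values measure the spread between these libraries only.

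In canonical Wnt signaling, a secreted Wnt ligand binds a Frizzled receptor and the co-receptor LRP5 or LRP6, and the destruction complex built on AXIN and APC stops marking β-catenin, the product of CTNNB1, for degradation. β-catenin then enters the nucleus and acts with TCF/LEF factors on target genes. Several targets feed back on the pathway: AXIN2 rebuilds the destruction complex, DKK1 blocks the co-receptors, RNF43 and ZNRF3 remove Frizzled from the membrane, NKD1 restrains Dishevelled, and TCF7 and LEF1 are themselves partners of β-catenin. β-catenin is controlled mainly at the level of its protein, so the CTNNB1 transcript is not itself a measure of pathway activity.

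Polyadenylated RNA was sequenced, and the libraries held between 21888530 and 25711353 counts. The r-CRMP2 libraries correlated with each other at 0.990 to 0.991 across log2 CPM of the genes tested, which are not independent replicates. Of the ovarian carcinoma markers examined, the keratins KRT8 and KRT18 were abundant (mean 1362 and 1986 TPM in untreated cells), whereas WT1 and CLDN3 had at most 4 counts in a library. Fibroblast markers were present in these libraries as well, led by COL1A1, and their summed level was 280 to 320 TPM in untreated and 200 to 214 TPM in r-CRMP2 libraries. Of those 11 genes, FAP was near 0 with 4 to 9 counts per library. Of the 10 tested, 4 were higher (40%) and 3 lower (30%) with r-CRMP2 at an adjusted p-value under 0.05. Among all genes tested these shares were 28.2% and 30.1%. The ovarian carcinoma markers also summed to less with r-CRMP2, at 2851 to 3106 TPM against 3358 to 3464 TPM. Of their 7 tested genes, 2 were higher (28.6%) and 1 lower (14.3%). The sums carry no TMM scaling, the normalization used for the tests. With it, the median log2 fold change was 0.11 for the tested carcinoma markers and 0.19 for the tested fibroblast markers. The part of either list in the results below was not tested.

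The 10 genes covered a wide range of levels. On the TPM scale, which divides counts by gene length and sets each library to the same total, CTNNB1 stood highest in untreated cells at 163 ± 6.17 TPM (SD, n = 3). DKK1 followed at 46.2 ± 2.62 TPM, and then RNF43 at 10.2 ± 0.309 TPM, TCF7 at 6.17 ± 0.602 TPM and ZNRF3 at 4.19 ± 0.137 TPM (SD, n = 3 for each). None of these neighbours overlapped in the untreated libraries. AXIN2 lay far below them, at 0.613 ± 0.0556 TPM (SD, n = 3). LEF1, LGR5, SP5 and NKD1 were each at 0.188 TPM or less in every library, with overlapping values, so their order could not be told. With r-CRMP2 the same order held down to RNF43, while TCF7 (2.54 to 3.41 TPM) and ZNRF3 (2.54 to 2.90 TPM) overlapped.

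**Figure D1:**
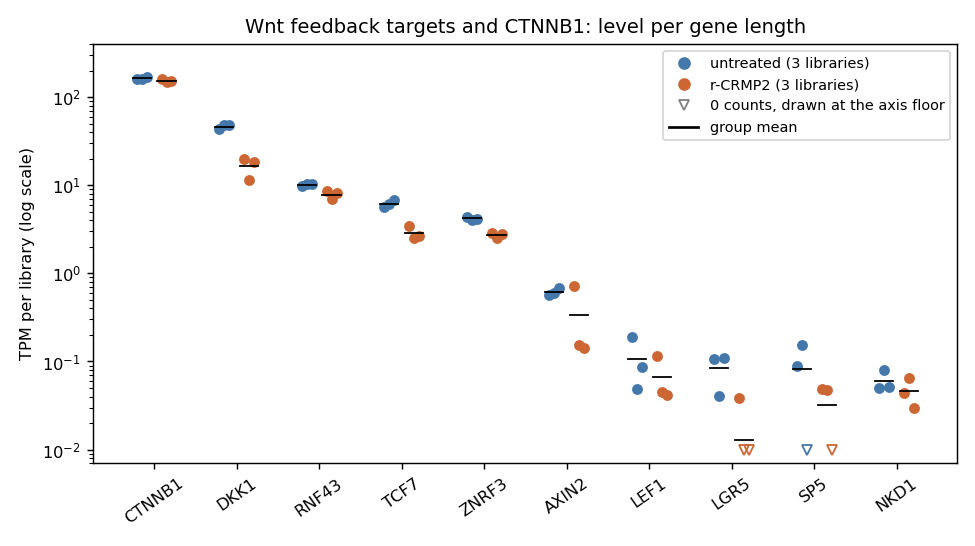
TPM of each gene (vertical axis, log scale) in the 3 untreated and the 3 r-CRMP2 libraries; black lines are group means and open triangles mark libraries with 0 counts. CTNNB1 was the highest gene in all 6 libraries, and LEF1, LGR5, SP5 and NKD1 stayed at 0.188 TPM or less.

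The start regions of these genes were read for the TCF/LEF motif, and the windows shown are those with a match. Whether a match goes with a change in expression was not tested, and the start that A2780 cells use was not determined. The sequences are from RefSeq (GRCh38.p14) and run from 250 bases before to 50 bases after an annotated start, on the gene's strand. They were matched by symbol for 6 of the 10 genes, in 8 windows, and not for AXIN2, LGR5, NKD1 and ZNRF3. The motif CTTTGAA was searched on both strands, as was the motif CTTTGAT, and so were the motif CTTTGTA and the motif CTTTGTT. They share their opening letters and differ at the end, so 1 place cannot match more than 1 of them on a strand. Matches are in capitals. DKK1 (chr10:52314031-52314330, plus strand) held 2 matches, at -95 and -76 from the start. The downstream of 2 TCF7 windows (chr5:134123368-134123667, plus strand) held 1 at -50 and the upstream one held none. SP5 (chr2:170715087-170715386, plus strand) held 3, at -148, -109 and -84. Windows of LEF1, RNF43 and CTNNB1 held none. At least 1 match was present in 3 of the 8 windows (37.5%) and in 13.8% of all 35116 windows, and a match describes letters only.
DKK1: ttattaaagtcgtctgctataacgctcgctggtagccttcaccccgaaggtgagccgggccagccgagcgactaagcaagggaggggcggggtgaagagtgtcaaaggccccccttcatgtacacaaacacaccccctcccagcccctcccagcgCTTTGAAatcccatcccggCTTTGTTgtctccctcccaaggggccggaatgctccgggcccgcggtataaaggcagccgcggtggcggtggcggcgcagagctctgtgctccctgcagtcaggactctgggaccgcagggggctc
TCF7: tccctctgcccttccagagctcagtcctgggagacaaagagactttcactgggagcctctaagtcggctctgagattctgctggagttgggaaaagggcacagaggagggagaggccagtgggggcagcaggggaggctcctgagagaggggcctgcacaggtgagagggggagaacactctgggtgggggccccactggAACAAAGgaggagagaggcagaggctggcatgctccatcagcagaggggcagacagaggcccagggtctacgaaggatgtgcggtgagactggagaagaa
SP5: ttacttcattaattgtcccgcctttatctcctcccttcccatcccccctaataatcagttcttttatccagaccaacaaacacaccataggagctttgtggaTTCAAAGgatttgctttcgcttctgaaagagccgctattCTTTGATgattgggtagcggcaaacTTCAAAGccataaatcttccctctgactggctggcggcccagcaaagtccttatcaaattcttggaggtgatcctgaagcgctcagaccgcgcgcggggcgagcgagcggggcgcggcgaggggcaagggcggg

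DKK1, the secreted antagonist that binds LRP5 and LRP6, showed the largest fall among the tested members. Its CPM, the counts scaled to a common total after TMM normalization, was 32.5, 34.9 and 35.2 in untreated replicates 1, 2 and 3. With r-CRMP2 it was 17.5, 11.1 and 16.7. Every treated library lay below every untreated one, and replicate 2 was the lowest of the treated libraries. DKK1 (chromosome 10, 54074041 to 54077417 in hg19, the build in the submitters' processing notes) therefore went from 34.2 ± 1.47 to 15.1 ± 3.50 CPM (SD, n = 3 for both). Its log2 fold change was -1.17 (95% interval -1.42 to -0.93, adjusted p = 7.60e-08 by edgeR). DKK1 was the only member past both thresholds of the study, an adjusted p-value of 0.05 and a log2 fold change of 1 in size, and 8.86% of all 16222 genes tested were past both in the same direction. Without r-CRMP2 replicate 2 its log2 fold change was -0.99, just inside the fold threshold. In bulk RNA, less transcript per cell and fewer cells carrying it cannot be told apart.

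**Figure D2:**
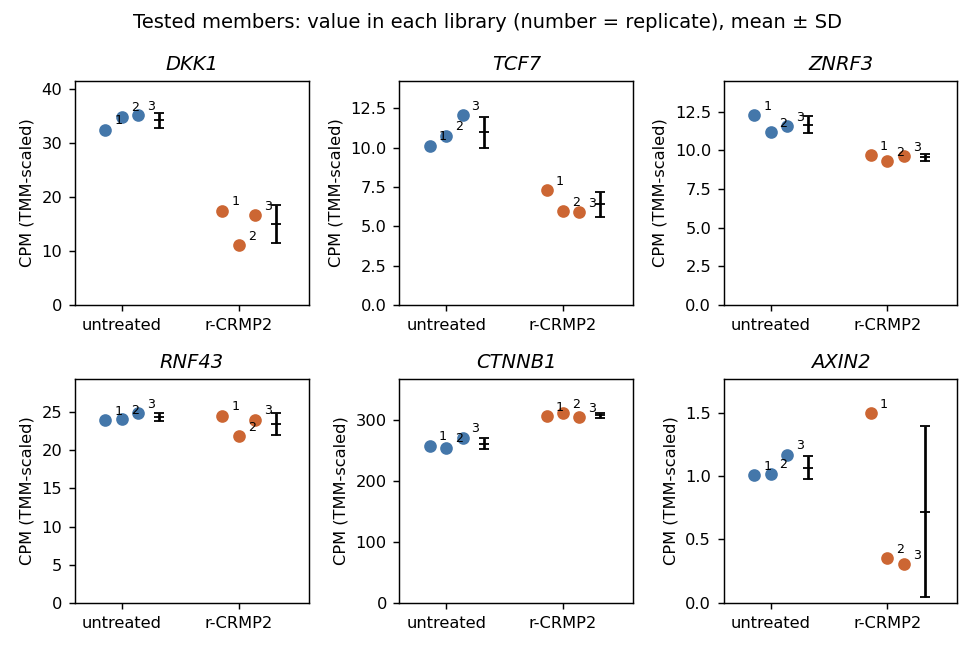
TMM-scaled CPM of the 6 tested members in each library (numbers are replicates), with the group mean ± SD beside the points and each axis starting at 0. DKK1, TCF7 and ZNRF3 were lower in all 3 r-CRMP2 libraries, CTNNB1 was higher on this scale (its sign turned with library size alone), RNF43 overlapped, and AXIN2 was low in r-CRMP2 replicates 2 and 3 but not in replicate 1.

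TCF7, which encodes the DNA-binding partner TCF-1, was also lower after treatment. It had 10.1, 10.8 and 12.1 CPM in the untreated libraries and 7.30, 5.97 and 5.92 CPM with r-CRMP2, without overlap. The mean of TCF7 (chromosome 5, 133450389 to 133483920) fell from 10.99 ± 0.982 to 6.40 ± 0.785 CPM (SD, n = 3 for both), with -0.78 as log2 fold change (95% interval -1.05 to -0.51, adjusted p = 4.20e-05 by edgeR). It passed the adjusted p-value threshold in all 12 alternative fits. LEF1, the closest relative of TCF7 in this set, was scarcely expressed, with 9, 2 and 4 counts in the untreated and 5, 2 and 2 counts in the r-CRMP2 libraries. These were too few for the filter on low counts, and the ratio of treated to untreated was 0.746 with a counting interval of 0.288 to 1.82.

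Of the other TCF/LEF genes, TCF7L2, often the main TCF of epithelial cells, was higher with TMM, going from 15.2 ± 0.732 to 20.1 ± 0.662 CPM (SD, n = 3 for both), with 0.41 as log2 fold change (adjusted p = 0.000591 by edgeR), and with library size alone as the scaling it was 0.10 and did not pass (adjusted p = 0.362 by edgeR). TCF7L1 had a log2 fold change of 0.24 (95% interval -0.16 to 0.65, adjusted p = 0.291 by edgeR), and -0.064 with library size alone. A share within a library does not depend on the scaling. TCF7 took 34.5%, 35.5% and 37.3% of the summed TPM of the 4 TCF/LEF genes in untreated libraries and 21.5%, 19.4% and 19.2% with r-CRMP2. TCF7L2 took 47.6% to 52.2% in untreated libraries and 60.7% to 66.5% with r-CRMP2. Shares of 1 sum are tied, so a lower TCF7 raises the share of TCF7L2 without a rise of TCF7L2 itself. The summed TPM was 16.2 to 18.2 in untreated and 13.1 to 15.8 in r-CRMP2 libraries. The TPM of TCF7L2 overlapped between the groups, with 7.95, 8.99 and 8.68 in untreated and 9.62, 8.26 and 9.28 in r-CRMP2 libraries. These shares were computed after the single values were seen and are given as a description.

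**Figure D3:**
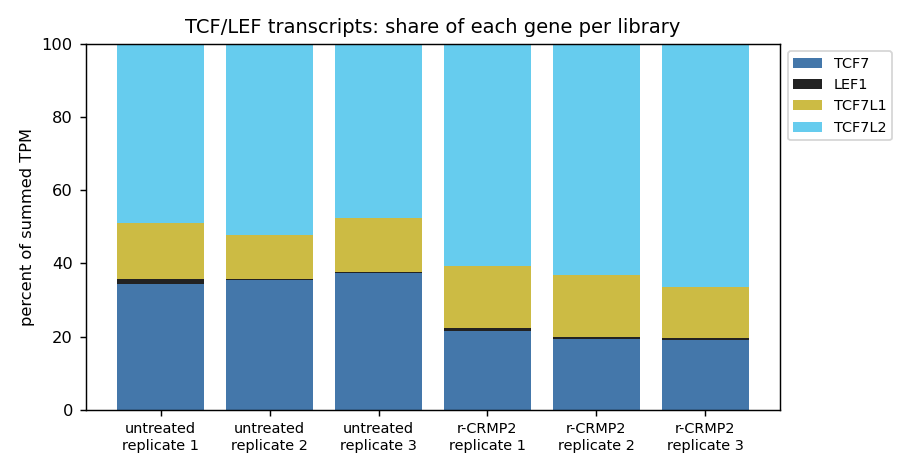
Share of TCF7, LEF1, TCF7L1 and TCF7L2 in their summed TPM (vertical axis, percent), 1 bar per library. TCF7 took 34.5% to 37.3% in the untreated libraries and 19.2% to 21.5% in the r-CRMP2 libraries.

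ZNRF3 and RNF43, the paired membrane ubiquitin ligases that clear Frizzled receptors, were both expressed, and the difference between their changes was not tested. ZNRF3 (chromosome 22, 29279755 to 29453476) had 12.3, 11.2 and 11.6 CPM in untreated and 9.69, 9.30 and 9.62 CPM in r-CRMP2 libraries. The groups were close but did not overlap. The log2 fold change was -0.29 (95% interval -0.52 to -0.06, adjusted p = 0.0286 by edgeR). This call was weak: it passed in 5 of 12 alternative fits, and the adjusted p-value was between 0.0436 and 0.0900 when single libraries were left out and 0.0692 with DESeq2. RNF43 (chromosome 17, 56429861 to 56494943) had 23.9, 24.1 and 24.9 CPM in untreated and 24.5, 21.8 and 24.0 CPM in r-CRMP2 libraries, which overlapped. Its log2 fold change was -0.05 (95% interval -0.22 to 0.12, adjusted p = 0.622 by edgeR). With library size alone RNF43 was lower and passed (log2 fold change -0.36, adjusted p = 0.00162 by edgeR), and without r-CRMP2 replicate 2 its value was 0.0077. In TPM, RNF43 was lower without overlap, at 9.83 to 10.4 in untreated and 6.92 to 8.52 in treated libraries. Independently of scaling, the TPM of RNF43 was 2.27 to 2.51 times that of ZNRF3 in untreated libraries and 2.73 to 2.94 times with r-CRMP2, a description given after the values were seen. RNF43 overlaps TSPOAP1-AS1 on the opposite strand, which had 56 counts in the untreated and 20 in the r-CRMP2 libraries, against 1937 and 1507 counts of RNF43.

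LGR5, the R-spondin receptor that protects Frizzled from these ligases and marks Wnt-dependent stem cells, was near the limit of detection. It had 6, 2 and 6 counts in the untreated libraries and 2, 0 and 0 counts with r-CRMP2. The ratio of treated to untreated was 0.178, with a counting interval of 0.0196 to 0.773 that covers counting error only. LGR5 was left out by the low-count filter, and without a filter its change did not pass (adjusted p = 0.160 by edgeR). Its relative LGR4 was well expressed and lower, at 41.2 ± 3.95 CPM in untreated and 26.1 ± 3.22 CPM in treated cells (SD, n = 3 for both), with -0.66 as log2 fold change (adjusted p = 6.31e-06 by edgeR).

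AXIN2, the scaffold often taken as the most general Wnt target, was low and varied between the treated libraries. It had 28, 25 and 32 counts in untreated libraries and 32, 7 and 7 counts in r-CRMP2 replicates 1, 2 and 3. In counts, replicate 1 equalled the highest untreated library, and in CPM and TPM it lay above every untreated library. Replicates 2 and 3 lay far below every untreated library on each of these scales. The treated libraries thus fell on both sides of the untreated range once scaled. With all libraries, AXIN2 (chromosome 17, 63524681 to 63557740) had 1.07 ± 0.0908 CPM in untreated and 0.719 ± 0.675 CPM in treated cells (SD, n = 3 for both), with -0.57 as log2 fold change (95% interval -1.53 to 0.39, adjusted p = 0.300 by edgeR). Without r-CRMP2 replicate 1 the log2 fold change was -1.67 (adjusted p = 0.00438 by edgeR), and without replicate 3 it was -0.18 (adjusted p = 0.766 by edgeR). Whether AXIN2 was called lower rested on r-CRMP2 replicate 1. The 1437 genes that were lower and past both thresholds were picked from these same libraries. Their median log2 difference from the untreated mean was -1.22 in replicate 1, against -1.41 and -1.40 in replicates 2 and 3. A link between these medians and the AXIN2 values was not tested.

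NKD1 and SP5 gave no measurable change. NKD1, a Dishevelled-binding inhibitor, had 5, 7 and 5 counts in untreated and 4, 6 and 3 counts in treated libraries, a ratio of 0.951 with a counting interval of 0.425 to 2.08. SP5, a zinc-finger repressor induced by Wnt in many cell types, had 2, 3 and 0 counts in untreated and 1, 1 and 0 counts in treated libraries, a ratio of 0.497 with an interval of 0.0474 to 3.04. A change in either was not detectable at this depth, and intervals this wide hold both rises and falls. NKD2, the paralog of NKD1, was expressed more and rose from 7.58 ± 1.12 to 23.4 ± 1.55 CPM (SD, n = 3 for both), with 1.63 as log2 fold change (adjusted p = 4.92e-10 by edgeR).

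CTNNB1, the gene of β-catenin, was abundant, and the direction of its change depended on the scaling. It had 257, 254 and 271 CPM in untreated and 306, 311 and 304 CPM in r-CRMP2 libraries, without overlap. CTNNB1 (chromosome 3, 41240915 to 41281944) was higher by a log2 fold change of 0.24 with TMM (95% interval 0.11 to 0.36, adjusted p = 0.00200 by edgeR), but with library size alone the sign turned, to -0.074 (adjusted p = 0.245 by edgeR). Its TPM overlapped between the groups, with 159, 161 and 170 TPM in untreated and 159, 148 and 154 TPM in treated libraries. Scaling moved the median log2 fold change of all genes tested from -0.03 with TMM to -0.34 with library size. Relative to that median, the log2 fold change was 0.26 for CTNNB1, -1.15 for DKK1, -0.75 for TCF7, -0.26 for ZNRF3 and -0.02 for RNF43 under either scaling. A change of scaling moves every gene by about the same amount, so this sameness was fixed in advance and does not settle the direction.

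**Figure D4:**
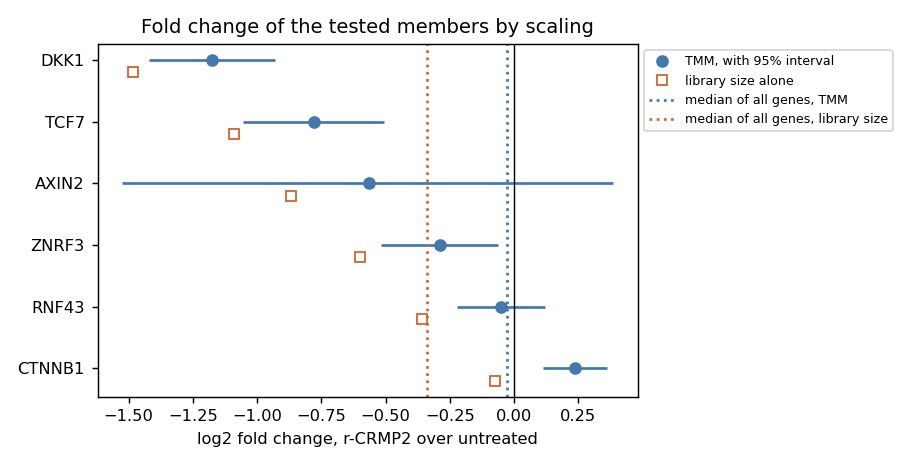
Log2 fold change of the 6 tested members (horizontal axis, r-CRMP2 over untreated) with TMM and its 95% interval (filled) and with library size alone (open squares); dotted lines are the medians of all genes tested under each. DKK1 and TCF7 lay below both medians, RNF43 lay on them, and CTNNB1 lay above both while its sign turned.

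Counted over the set, 6 of the 10 genes passed the low-count filter. Of these 6, 3 were lower (DKK1, TCF7 and ZNRF3), 1 was higher (CTNNB1) and 2 were not called (RNF43 and AXIN2). Among all genes tested, 30.1% were lower and 28.2% were higher by the adjusted p-value, and in 33.3% all r-CRMP2 libraries lay below all untreated libraries. For rises past both thresholds the count was 0 of 6 members, and 5.12% among the 16222 genes. The 6 members had a median of -0.43 on the log2 scale, the 16222 genes one of -0.03. Changes were common in this comparison, so counts this small are a description of the members.

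Beyond the feedback genes, 132 further Wnt pathway genes were listed by role, and 96 of them were tested. Of these, 35 were higher (36.5%) and 29 lower (30.2%), with a median log2 fold change of 0.05. In all genes tested these shares were 28.2% and 30.1%, and the counts per role below, with TMM, stand beside them. With library size alone the split was 18 higher and 48 lower. Past both thresholds, 7 were higher and 7 lower, and with library size alone TPBG, CSNK1E and JUN were at 0.83 to 0.84, inside the fold threshold. LRP6, LGR4, APC, AXIN1, GSK3B, TCF7L1, TCF7L2, MYC and CCND1 are given whatever their values. WNT2B and FZD8 were picked by their likeness to AXIN2, and the other genes named below that did not pass both thresholds were picked after their values were seen.

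Among ligands, 11 of 19 were tested, of which 2 rose (18.2%) and 4 fell (36.4%). WNT7B rose from 8.87 ± 1.75 to 24.0 ± 2.47 CPM (SD, n = 3 for both), with 1.43 as log2 fold change (adjusted p = 9.36e-09 by edgeR), and WNT10B by 0.80. The falls were in WNT3, WNT5A, WNT5B and WNT16, between -0.95 and -0.36. PORCN, the acyltransferase that Wnt ligands need for secretion, rose by 0.91, and none of the 4 R-spondin genes was expressed enough to be tested.

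Among receptors, of 15 tested, 6 fell (40%) and 2 rose (13.3%), against 30.1% and 28.2% of all genes tested. Their median log2 fold change was -0.46. FZD2, FZD4, FZD6 and FZD7 fell by between 0.46 and 0.78 on the log2 scale, together with LGR4 and LGR6. LGR6 was low, at 17 to 25 counts in untreated and 3 to 11 in treated libraries (log2 fold change -1.44, adjusted p = 0.0159 by edgeR), and did not pass without untreated replicate 2, r-CRMP2 replicate 2 or r-CRMP2 replicate 3 (adjusted p between 0.0732 and 0.0836 by edgeR). FZD5 and LRP5 rose by 0.60 and 0.33. LRP6, which DKK1 binds, had a log2 fold change of -0.12 (95% interval -0.29 to 0.05, adjusted p = 0.229 by edgeR), which was -0.43 and passed with library size alone (adjusted p = 0.000455 by edgeR).

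Of 16 other antagonists listed, 6 were tested, and 2 rose (33.3%) and 1 fell (16.7%). TPBG, a membrane protein that restrains canonical signaling, rose by 1.14, NOTUM, which inactivates Wnt ligands, rose by 0.77, and KREMEN1, a receptor for DKK1, fell by 0.80. DKK3, SFRP1 and KREMEN2 were not called, with log2 fold changes from -0.15 to 0.16.

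All 19 genes of the Dishevelled and destruction complex list were tested, and 9 rose (47.4%) and 7 fell (36.8%). The falls past both thresholds were in APC, the tumour suppressor scaffold (-1.42), AMER1, its membrane partner (-1.57), BTRC, the ligase subunit that recognises phosphorylated β-catenin (-1.25), and FRAT1, a GSK3-binding protein (-2.02). Each had an adjusted p of 2.57e-07 or less by edgeR. The rises past both thresholds were in NKD2 and in the kinase gene CSNK1E (1.15), whose counts are uncertain because a read-through gene at the same position carried 15736 and 28644 counts in the 2 groups. AXIN1, which unlike AXIN2 is not itself a Wnt target, had a log2 fold change of -0.04 (95% interval -0.18 to 0.09, adjusted p = 0.575 by edgeR), which was -0.36 and passed with library size alone (adjusted p = 0.000177 by edgeR). GSK3B fell by 0.24 on the log2 scale (adjusted p = 0.00563 by edgeR).

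**Figure D5:**
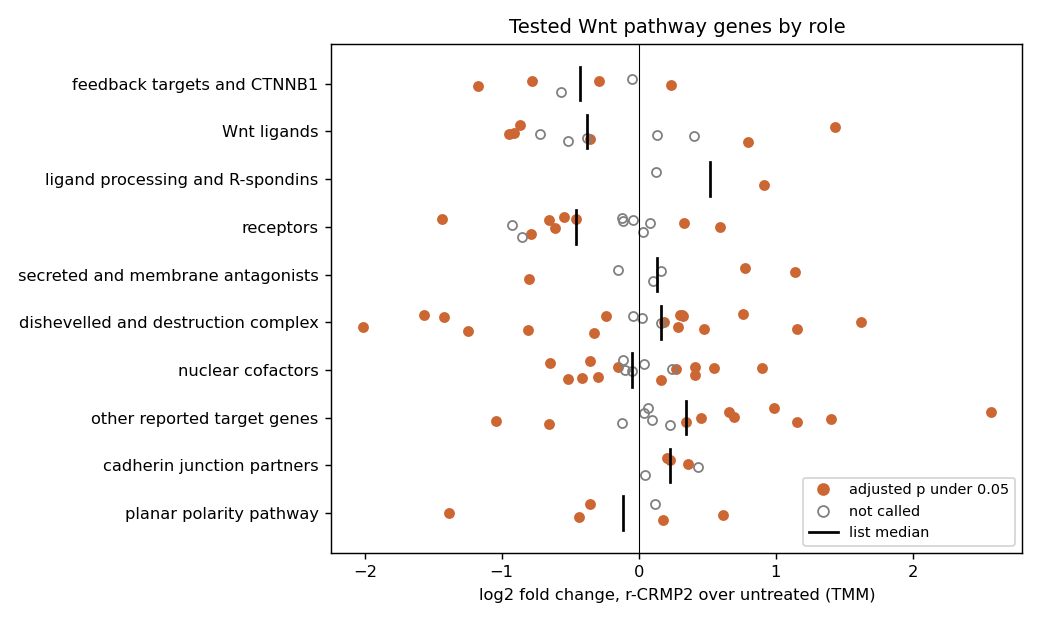
Log2 fold change (horizontal axis, TMM) of each tested gene by role, filled where the adjusted p-value was under 0.05, with the median of each list as a black line. The 6 tested members, CTNNB1 among them, had a median of -0.43 and receptors of -0.46, whereas other reported targets had 0.35. The median of the members lies between AXIN2 (-0.57, not called) and ZNRF3 (-0.29, a weak call).

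Genes often listed as Wnt targets in other cells, but shared with many other pathways, were listed separately. Of 15 tested, 8 rose (53.3%) and 2 fell (13.3%), against 28.2% and 30.1% of all genes tested. FOSL1, an AP-1 subunit, rose by 2.57, SOX9 by 1.40 and JUN by 1.16, and MYC rose from 503 ± 6.84 to 814 ± 45.1 CPM (SD, n = 3 for both), with 0.69 as log2 fold change (adjusted p = 1.83e-08 by edgeR). CCND1, the gene of cyclin D1, went the other way, from 161 ± 3.40 to 78.2 ± 5.86 CPM (SD, n = 3 for both), with -1.04 as log2 fold change (adjusted p = 1.79e-10 by edgeR). JUN had 43.9 CPM in untreated replicate 1 against 88.0 and 97.5 CPM in the other two, and without that library its log2 fold change was 0.88. Without r-CRMP2 replicate 2 that of CCND1 was -0.98, so that each was then inside the fold threshold. TNFRSF19 fell by 0.66. Of 6 planar polarity genes tested, 2 rose (33.3%) and 3 fell (50%), and VANGL1 fell by 1.38. Of 5 cadherin partners of β-catenin tested, 3 rose (60%) and 0 fell, beside the same shares of all genes tested. CTNNA1, JUP and CDH2 rose by between 0.21 and 0.36, and CDH1 was too low to be tested. On the TPM scale the means of JUP (237 and 221 TPM) and CDH2 (14.2 and 13.1 TPM) were instead lower with r-CRMP2, and that of LRP5 was level (40.8 and 41.1 TPM). In the nuclear list, 6 of 17 tested genes rose and 6 fell (35.3% each), none past both thresholds.

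The pathway genes whose log2 CPM across the 6 libraries was most like that of AXIN2 were WNT2B, FZD8 and LGR6, with Pearson's r of 0.943, 0.922 and 0.852. The libraries fall into 2 groups, and all 4 genes are low, so these values share the same depth limit and are given as a description. Neither WNT2B (22, 18 and 26 against 18, 8 and 11 counts) nor FZD8 (20, 14 and 21 against 13, 6 and 4 counts) was called, although FZD8 passed without r-CRMP2 replicate 1 (adjusted p = 0.0255 by edgeR) and with library size alone (adjusted p = 0.0259 by edgeR).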

How the data were processed

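RNA of 6 A2780 cultures was sequenced after poly(A) selection (NEBNext kits, paired ends). Per the submitters' processing notes, FastQC, HISAT2, DESeq2 and hg19 were used. The counting tool, annotation and strand setting are not given in the sources used here. The authors deposited unnormalized counts per gene and, beside them, TPM values, which differed by at most 4.72e-06 from those recomputed from counts and the deposited gene lengths. TPM served to compare levels between genes and, where stated, between groups, and counts served for all tests. Here counts were compared by edgeR's quasi-likelihood test (edgeR 4.0.16, R 4.3.3) over 3 untreated and 3 r-CRMP2 libraries, with TMM scaling, edgeR's filter on low counts and Benjamini-Hochberg adjustment over 16222 genes. The 95% intervals of log2 fold changes follow from the same fit. Intervals of ratios of summed counts are exact Poisson intervals and cover counting error only. The test was also run on simulated data at a dispersion of 0.00499, with no outcome given here. That setting does not cover genes as variable as AXIN2 or cultures that were not grown separately.

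The members and the role lists, written by hand, were chosen with earlier results of these data known. By rule, the genes named are the members, list genes past both thresholds, 9 genes given whatever their values, and the 3 list genes most correlated with AXIN2. Further list genes, markers and the overlapping gene were named after their values were seen. Alternatives were DESeq2 (1.42.0), RLE factors, library size alone, no filter, at least 10 counts in every sample, a replicate block and leaving out each library.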

Additional observations from a re-analysis of the deposited data

How the results depend on the processing

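Library size alone was the setting that moved most values. With it, the 1 member called higher became 0, members lower past both thresholds went from 1 to 2, and the sign turned for CTNNB1 (-0.074) and TCF7L1 (-0.064). For the other pathway genes, 35 higher and 29 lower became 18 and 48, and 7 and 7 past both thresholds became 4 and 14. That scaling lowers every log2 fold change by about the shift of the median (-0.34 against -0.03). The members lower past both thresholds ranged from 0 to 2 when single libraries were dropped, with 0 without r-CRMP2 replicate 2 and 2 without r-CRMP2 replicate 1. RNF43 ranged from -0.070 to 0.0077 when single libraries were dropped, its sign turning without r-CRMP2 replicate 2.

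Of 344 values of named genes over the alternatives, 324 kept their direction and side of the adjusted p-value threshold. Of the rest, 11 no longer passed it, 6 newly passed it and 3 turned in sign. The fold threshold was not part of this count, and DKK1, CCND1, JUN, TPBG and CSNK1E each fell inside it in some alternative. DKK1 ranged from -1.48 to -0.99 and TCF7 from -1.09 to -0.71, and both passed in all 12. ZNRF3 ranged from -0.60 to -0.25 and passed in 5. With the replicate number as a block, 3 members were lower and 1 higher, DKK1 was at -1.19, AXIN2 at -0.72 and ZNRF3 at -0.29, and no call of a named gene changed. Same-numbered libraries deviated from their group means with correlations of -0.02, 0.0038 and -0.03 and show no pairing by number. Depth limits LEF1, LGR5, SP5 and NKD1 (2 to 17 counts per group).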
